A study of Mus musculus with 14 samples.

Results

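The genes described here are H19, Igf2, Mest, Peg3, Dlk1, Meg3, Plagl1, Grb10 and Ndn, 9 imprinted genes with known roles in growth or in neural cells, taken by gene symbol from the 23427 genes of the table. They were chosen by measured values, with earlier results of these data known: H19 for its high level in cells given the Sbp2l siRNA and for its spread between controls, and Mest for its low level after differentiation. Those values are therefore given as a description, with no test. All cells were oligodendrocyte precursor cells (OPCs) immunopanned with an antibody against PDGFRα from cortices of C57BL/6J pups at postnatal day 7, and the replicates were separate cultures. The 14 mRNA-seq libraries fell into 7 groups of 2. Day0 was WT OPCs, and 6 groups were taken at Day3, after PDGF-AA had been withdrawn and T3, the thyroid hormone that drives differentiation into oligodendrocytes (OLs), had been added. The Day3 groups were WT cells that were non-treated, mock transfected, or transfected with NC siRNA #1 or with NC siRNA #2, both siRNAs without a target, and cells labelled Secisbp2l knockdown (siSbp2l) or Pdgfra knockdown (siPdgfra). Sbp2l is the RNA-binding protein encoded by Secisbp2l, and Pdgfra encodes the PDGF receptor of OPCs. The cultures came from a single inbred strain and the table gives 1 value per gene, so each level sums the maternal and the paternal copy.

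Imprinted genes are transcribed mainly from the copy of 1 parent, according to DNA methylation marks set in the germ line. Many of them act on growth: Igf2 encodes a fetal growth factor, and H19 is a noncoding RNA from the same chromosomal domain that is made from the maternal copy, whereas Igf2 is made from the paternal copy. Binding of CTCF to the unmethylated imprinting control region directs the shared enhancers to H19 on the maternal copy. Peg3, Plagl1, Mest, Dlk1, Meg3, Grb10 and Ndn belong to a network of imprinted genes that is high in dividing fetal tissue and falls as organs mature.

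The targeted mRNAs were low in the cells labelled as their knockdowns. Secisbp2l was 3.91 and 3.82 FPKM in siSbp2l and between 134.7 and 255.2 FPKM in the other Day3 libraries, and Pdgfra was 3.30 and 2.69 FPKM in siPdgfra and between 32.4 and 149.9 FPKM in the other Day3 libraries. FPKM is a fragment count scaled to a gene's exon length and to how many fragments its library had mapped. Depth, recovered from the steps between low values, was 18480074 to 31565172 fragments in 13 libraries and 6555953 in NC siRNA #2 replicate 2. The non-treated pair stood apart: the SD of the log2 difference between its replicates was 0.457, against 0.148 to 0.1995 in the other pairs, and that difference followed GC content with a rho of 0.771 across genes. The summed level of 9 OL markers was 731 and 811 FPKM at Day0 and 2688 to 10049 FPKM at Day3. Of markers of other cells, 7 for microglia summed to 0.534 to 9.46 FPKM per library, nearly all of it P2ry12, 6 for endothelium to 0.637 to 1.93 FPKM, mostly Kdr, 8 for pericytes and mural cells to 0.167 to 2.99 FPKM and 8 for meningeal fibroblasts to 1.81 to 7.29 FPKM, mostly Tbx18. Cldn5, Cdh5 and Slc22a6 were at 0 in all libraries, and Notch3, a mural marker, reached 2.85 FPKM. The 7 astrocyte markers summed to 69.3 and 66.9 FPKM at Day0 and 47.8 to 176.8 FPKM at Day3. Their sum was below Day0 in siPdgfra, at 48.9 and 47.8 FPKM. Gfap, 1 of these astrocyte markers, was 0.677 and 0.755 FPKM at Day0 and 17.97 to 79.2 FPKM at Day3, so it rose more than the sum.

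3 of the genes host a microRNA, and their mature sequences are printed because the host transcripts are what this assay measured, not the small RNAs. They are from RefSeq on GRCm38.p6, 5′ to 3′, with the seed (bases 2 to 8, which pair with target mRNAs) in capitals.
miR-675-5p: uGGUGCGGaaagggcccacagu
miR-675-3p: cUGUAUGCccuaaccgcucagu
miR-335-5p: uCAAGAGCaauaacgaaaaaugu
miR-335-3p: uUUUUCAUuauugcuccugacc
miR-483-5p: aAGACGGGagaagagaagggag
miR-483-3p: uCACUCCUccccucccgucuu
The Mir675 hairpin lies inside H19 (mm10, chr7:142577064-142577147, minus strand) and inside an exon of 3 of the 7 H19 transcripts of GENCODE M21. Mir335 lies in Mest (chr6:30741299-30741396, plus strand) and Mir483 in Igf2 (chr7:142654924-142654996, minus strand), both within introns of every GENCODE transcript that spans them, 7 of 11 and 7 of 9. Each of the 6 seeds was held by no other of the 1679 mature mouse microRNA names in the table, so the 3 hosts share no seed with each other. The separate entries for Mir675, Mir335 and Mir483 were listed at 0 in all 14 libraries, also in siSbp2l, where H19 was highest. The abundance of the mature microRNAs was not measured here.

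**Figure D1:**
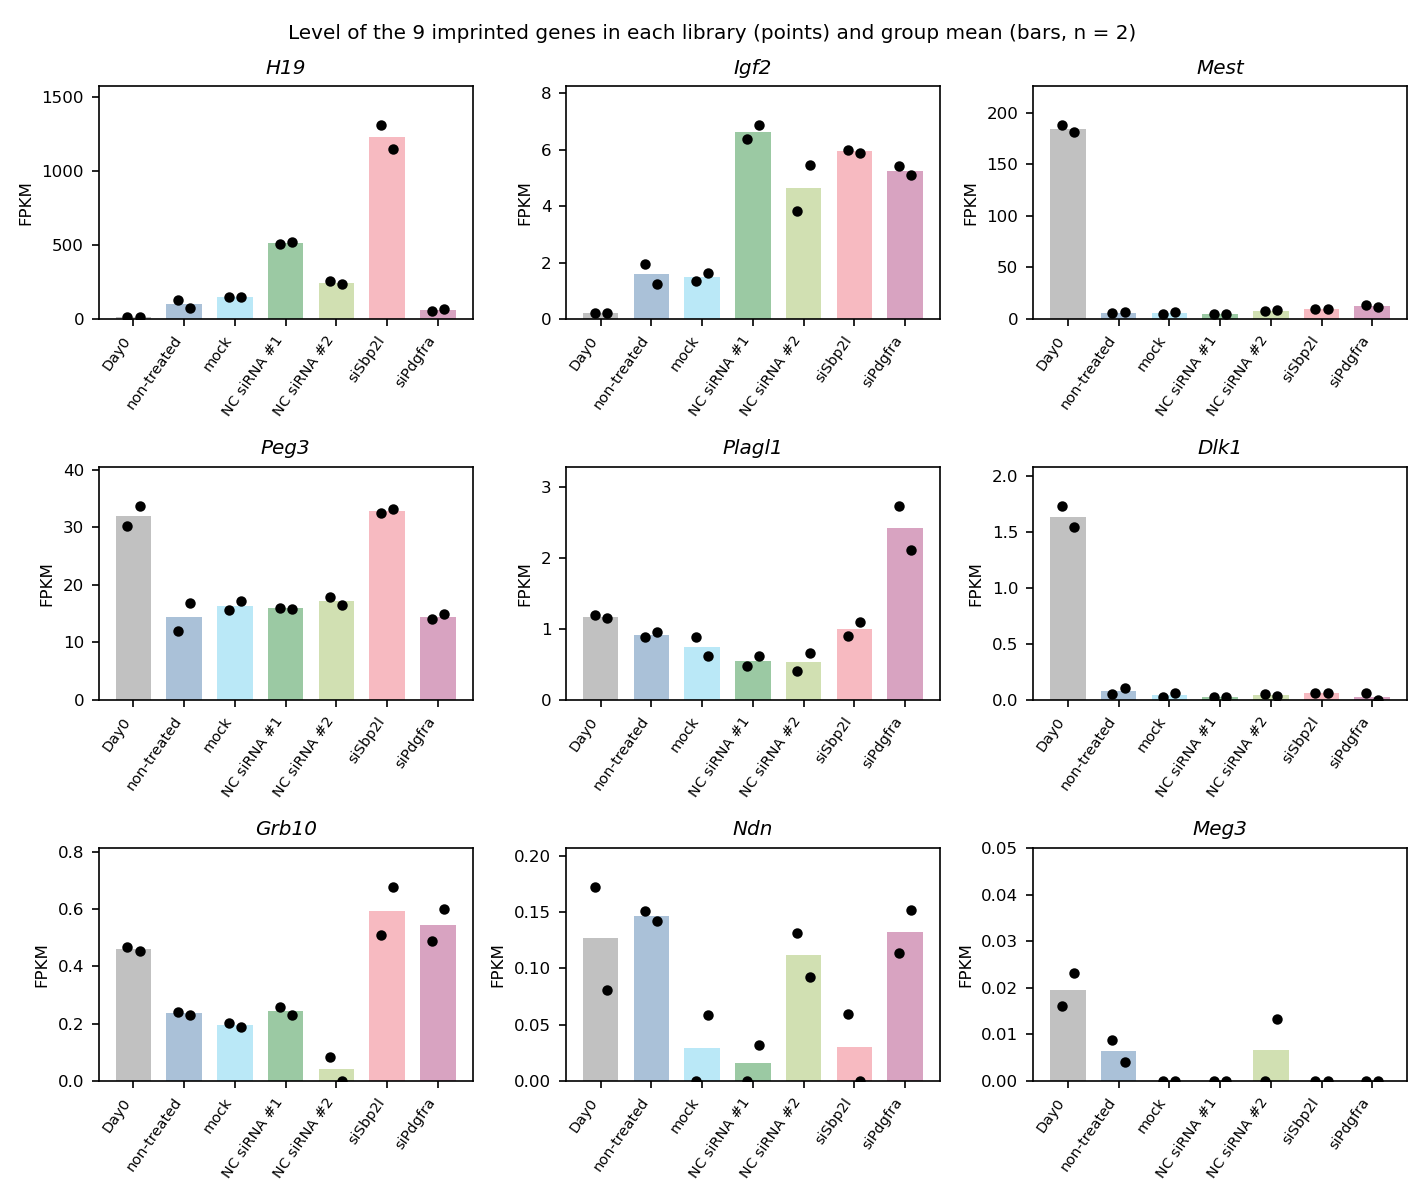
FPKM of the 9 genes on linear axes that start at 0, with 1 point per library and a bar for the mean of 2 libraries in each of the 7 groups. H19 was highest in siSbp2l (1154 and 1314 FPKM), Mest and Dlk1 were highest at Day0, Peg3 was near 33 FPKM in Day0 and siSbp2l alike, and Plagl1 was highest in siPdgfra.

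The genes spanned a wide range of levels. H19, Mest and Peg3 reached at least 1 FPKM in all 14 libraries, Igf2 in 12, Plagl1 in 5 and Dlk1 in 2. Grb10, Ndn and Meg3 did not reach it in any library, although Dlk1, Meg3 and Grb10 are imprinted genes of fetal growth. Highest levels per length were 1314 FPKM for H19, 188.4 for Mest, 33.8 for Peg3, 6.88 for Igf2, 2.74 for Plagl1, 1.74 for Dlk1, 0.677 for Grb10, 0.172 for Ndn and 0.0232 for Meg3. 

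H19 (chr7:142575532-142578146, minus strand, 2615 bases of exon) encodes a long noncoding RNA best known from the fetus and placenta. At Day0 it was 11.8 and 11.7 FPKM, and at Day3 129.5 and 75.6 FPKM in non-treated, 149.9 and 151.2 FPKM in mock, 509.4 and 521.8 FPKM in NC siRNA #1 and 254.8 and 233.5 FPKM in NC siRNA #2. It was 1314 and 1154 FPKM in siSbp2l and 50.7 and 64.7 FPKM in siPdgfra. The order of the group means, from low to high, was Day0, siPdgfra, non-treated, mock, NC siRNA #2, NC siRNA #1 and siSbp2l, and no neighbouring groups in that order overlapped. The mean of siSbp2l was 1234 ± 113 FPKM (SD, n = 2), 12.04 times that of non-treated but 2.39 times that of NC siRNA #1, so the size of the rise depended on the control it was set against. The mean of NC siRNA #1 was in turn 2.11 times that of NC siRNA #2 and 5.03 times that of non-treated. On the log2(FPKM + 1) scale used for all differences here, siSbp2l minus the mean of the 4 Day3 control groups was 2.56 for H19, and NC siRNA #1 minus NC siRNA #2 was 1.08, both given as descriptions. The non-treated libraries, which differed with GC content, were the furthest apart of any pair for H19 as a ratio, and H19 has a transcript GC content of 55.04% against a median of 50.6% over expressed genes.

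Igf2 (chr7:142650768-142661035, minus strand, 4236 bases of exon) encodes insulin-like growth factor 2, a ligand of the IGF1 receptor. It was 0.223 and 0.198 FPKM at Day0, 1.96 and 1.23 FPKM in non-treated and 1.33 and 1.64 FPKM in mock. It was 6.40 and 6.88 FPKM in NC siRNA #1, 3.81 and 5.45 FPKM in NC siRNA #2, 5.98 and 5.90 FPKM in siSbp2l and 5.43 and 5.09 FPKM in siPdgfra. All 8 libraries given an siRNA (3.81 to 6.88 FPKM) lay above all 4 Day3 libraries without siRNA (1.23 to 1.96 FPKM), a split noticed after the values were seen. Mock and non-treated overlapped, as did NC siRNA #2 and siPdgfra. Reads of Igf2 and of the overlapping antisense gene Igf2as (0.0653 FPKM at most as a group mean) cannot be told apart, because the strand setting of the counting is not given in the sources used here.

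**Figure D2:**
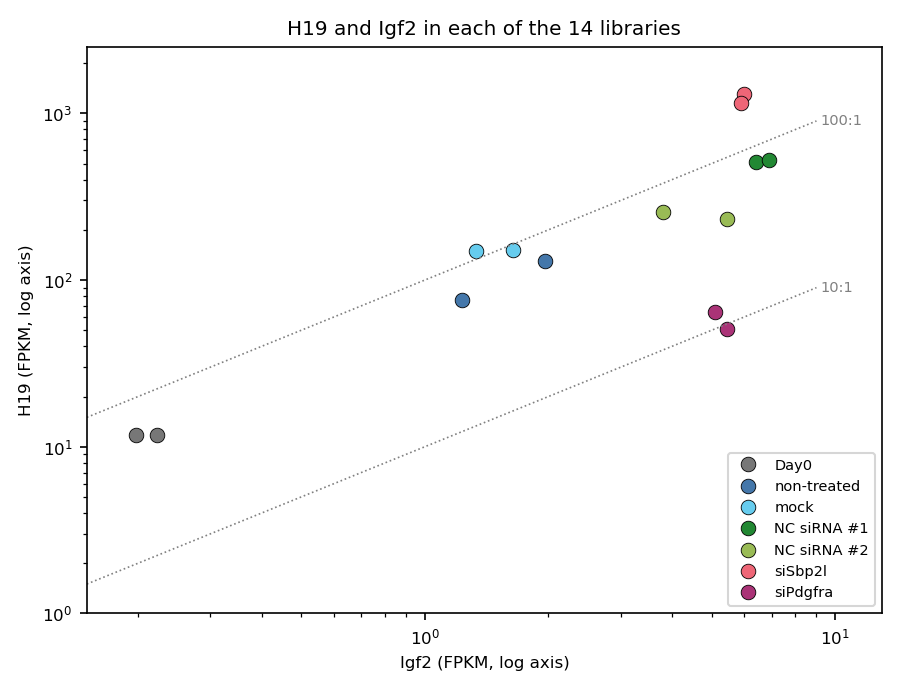
H19 against Igf2 in FPKM, both axes logarithmic, with 1 point per library coloured by group and dotted lines at H19 to Igf2 ratios of 10 and 100. The siSbp2l libraries lay above the 100 line and the siPdgfra libraries near the 10 line at about the same Igf2 level, and the other 10 libraries lay between 42.8 and 112.9. The ratios are a description, since H19 was chosen for its level in siSbp2l and its spread between controls.

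The ratio of H19 to Igf2, both per length, varied less than either gene over Day0 and the 4 Day3 control groups. It was lowest at 42.8, with a median of 66.4 and a highest value of 112.9 over those 10 libraries. It was 219.7 and 195.7 in siSbp2l and 9.33 and 12.7 in siPdgfra, so both knockdowns lay outside that range, in opposite directions. The ratio is a description alone, since it uses the siSbp2l and control values for which H19 was chosen. Over the 7 group means, log2(FPKM + 1) of H19 and Igf2 correlated with r = 0.78, a description across groups that share an annotation and a culture system.

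Mest (chr6:30733506-30748466, plus strand, 2777 bases of exon) encodes a membrane enzyme of the alpha/beta hydrolase family that is made from the paternal copy. It was 188.4 and 181.2 FPKM at Day0, then 5.44 and 6.51 FPKM in non-treated, 5.01 and 6.73 FPKM in mock, 4.53 and 5.00 FPKM in NC siRNA #1 and 7.36 and 8.57 FPKM in NC siRNA #2. It was 9.29 and 9.72 FPKM in siSbp2l and 13.8 and 11.4 FPKM in siPdgfra. Every Day3 library was far under Day0, by 30.9 times in non-treated, 19.4 times in siSbp2l and 14.7 times in siPdgfra as a ratio of means, and both knockdowns kept more Mest than all 8 control libraries. Day3 non-treated minus Day0 was -4.74 on the log2(FPKM + 1) scale, given as a description.

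Peg3 (chr7:6705960-6730419, minus strand, 6624 bases of exon) encodes a zinc finger protein made from the paternal copy. It was 30.3 and 33.8 FPKM at Day0, 12.04 and 16.9 FPKM in non-treated, 15.6 and 17.1 FPKM in mock, 16.0 and 15.9 FPKM in NC siRNA #1 and 17.8 and 16.4 FPKM in NC siRNA #2. It was 32.5 and 33.3 FPKM in siSbp2l and 14.04 and 14.9 FPKM in siPdgfra. The libraries formed 2 levels, with Day0 and siSbp2l between 30.3 and 33.8 FPKM and the other 10 libraries between 12.04 and 17.8 FPKM. Within the lower level the neighbours non-treated and siPdgfra overlapped, and so did NC siRNA #1 with mock and mock with NC siRNA #2. The overlapping antisense entry Peg3as has the same limit on strand as Igf2as.

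Plagl1 (chr10:13090788-13131695, plus strand, 5261 bases of exon), a zinc finger transcription factor of the imprinted network, was 1.19 and 1.16 FPKM at Day0, 0.881 and 0.961 FPKM in non-treated, 0.887 and 0.612 FPKM in mock, 0.482 and 0.618 FPKM in NC siRNA #1 and 0.411 and 0.666 FPKM in NC siRNA #2. It was 0.9001 and 1.10 FPKM in siSbp2l and 2.74 and 2.11 FPKM in siPdgfra. The siPdgfra libraries were above all others, and the neighbouring control groups overlapped throughout.

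Dlk1 (chr12:109452823-109463336, plus strand), a transmembrane ligand related to Notch ligands, was 1.74 and 1.54 FPKM at Day0 and between 0 and 0.108 FPKM in the 12 Day3 libraries. A total of 3 fragments would be 0.0198 to 0.0951 FPKM of Dlk1, depending on the library, and 5 libraries were under that level, which covers counting error only. Grb10 (chr11:11930499-12037420, minus strand), an adaptor that dampens insulin and IGF receptor signalling, was 0.466 and 0.454 FPKM at Day0, 0.241 and 0.230 FPKM in non-treated, 0.202 and 0.189 FPKM in mock and 0.259 and 0.231 FPKM in NC siRNA #1. It was 0.0850 and 0 FPKM in NC siRNA #2, 0.507 and 0.677 FPKM in siSbp2l and 0.487 and 0.599 FPKM in siPdgfra. The 4 knockdown libraries were thus above all 8 Day3 control libraries, at levels under 1 FPKM where no test was made. The 0 in NC siRNA #2 replicate 2, the shallowest library, allows a level of up to 0.0887 FPKM.

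Ndn (chr7:62348277-62349927, plus strand), a MAGE family protein of postmitotic neurons, was at most 0.172 FPKM, and 8 libraries were under the 3-fragment level of 0.0576 to 0.277 FPKM. Meg3 (chr12:109540996-109571729, plus strand), the maternal noncoding RNA of the Dlk1 domain, was at most 0.0232 FPKM and listed at 0 in 9 libraries, with 12 libraries under the 3-fragment level of 0.00736 to 0.0355 FPKM. Differences between groups in Ndn and Meg3 were not detectable at this depth.

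Differences were tested with limma on log2(FPKM + 1), and a gene was called at a fold of at least 2 and a Benjamini-Hochberg adjusted p under 0.05 over all genes tested. A gene was tested where at least 2 of the fitted libraries reached 1 FPKM. In the fit of 14 libraries 6 of the 9 genes passed this filter (Dlk1 through the Day0 libraries and Igf2 through the Day3 libraries alone), and in the fit of the 12 Day3 libraries 5 passed, Plagl1 through siPdgfra and 1 siSbp2l library. A gene that passes through its high group had to differ, so the counts below are a description of the named genes. Such a gene among the 9 is given the adjusted p of a fit with no filter, over all genes above 0 in any library, or no p-value. Other genes that pass through their high group alone are given as descriptions. H19 in the knockdowns was set against the Day3 controls as a description alone, since their spread was part of its choice.

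**Figure D3:**
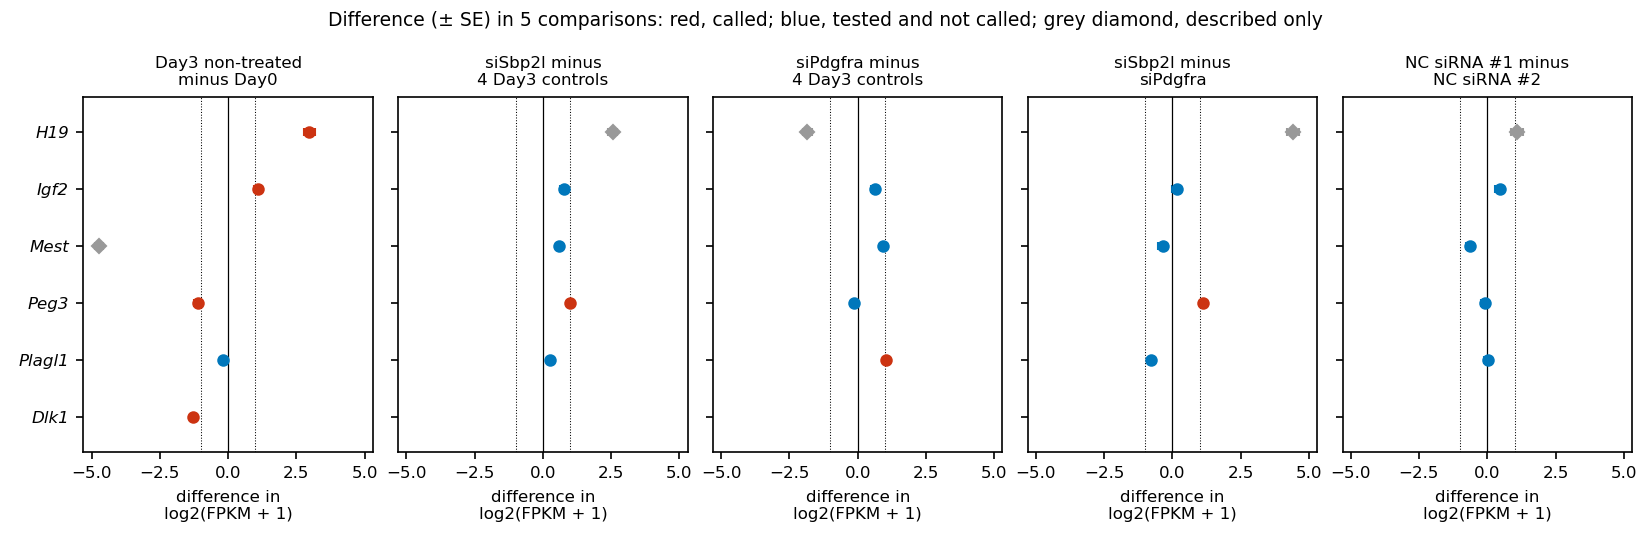
Difference in log2(FPKM + 1) with its SE (x axis) for the 6 genes that passed the filter in 5 comparisons. Red points were called, blue points were tested and not called, grey diamonds have no test because the groups compared helped to choose the gene, and dotted lines mark a fold of 2. H19 lay at 2.97 in Day3 non-treated minus Day0, drawn in red but a description in the text, and at -1.84 in siPdgfra minus the controls.

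The first comparison asked what differs between OPCs and cells after differentiation. From Day0 to Day3 non-treated, H19 and Igf2 rose and Peg3 and Dlk1 fell. H19 rose by 2.97 ± 0.203 (SE, n = 2 against 2), given as a description because non-treated was part of the control spread that helped to choose it. Peg3 fell by 1.11 ± 0.133 (limma adjusted p = 2.06e-05). Igf2, which passed the filter through Day3 alone, was at 1.09 ± 0.156 (limma adjusted p = 0.000273 with no filter). Dlk1, which passed it through Day0 alone, was at -1.28 ± 0.0771 (limma adjusted p = 1.54e-08 with no filter). Plagl1 did not pass, at -0.18 ± 0.125 (limma adjusted p = 0.226). That made 2 higher and 2 lower of 5 genes, a count that holds H19 and to which the filter brought Igf2 and Dlk1, where 11.4% of 11874 genes were called higher and 15.2% lower. With mock in place of non-treated, H19 (again a description) was 3.57 and Igf2 1.03 higher than at Day0 and both passed the thresholds, but Peg3, at -0.93, did not. Without non-treated replicate 1, Igf2 (0.88) and Peg3 (-0.88) were no longer called. In bulk RNA a change in the share of a cell type cannot be told apart from a change of RNA per cell.

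Both siSbp2l libraries lay within the Day0 range of Peg3. Peg3 in siSbp2l minus Day0 was 0.04 ± 0.133 (limma adjusted p = 0.805), whereas Peg3 in siPdgfra was lower than at Day0 by -1.09 ± 0.133 (limma adjusted p = 2.24e-05). As a description, siSbp2l minus Day0 and siPdgfra minus Day0 were 2.52 and 2.37 for Igf2 and -1.31 and -1.36 for Dlk1, both of which passed the filter through their high side. H19 was 2.19 ± 0.203 higher in siPdgfra than at Day0 (limma adjusted p = 2.38e-06).

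The second comparison asked what the loss of Sbp2l changes at Day3. Against the mean of the 4 control groups, Peg3 rose in siSbp2l by 1.01 ± 0.108 (limma adjusted p = 4.20e-05), just past a fold of 2. It was the 1 gene called of 4 tested, where 3.12% of 11650 genes were called higher and 4.08% lower. Mest (0.58 ± 0.119, adjusted p = 0.00242) and Igf2 (0.77 ± 0.131, adjusted p = 0.000784) passed the adjusted p in limma but not the fold. Plagl1 was at 0.25 ± 0.106 (limma adjusted p = 0.0698 with the filter, which it passed through siPdgfra and 1 siSbp2l library). Against single controls Peg3 was 1.15 higher than in non-treated, 0.97 than in mock, 0.9999 than in NC siRNA #1 and 0.90 than in NC siRNA #2, so only the first passed a fold of 2. The median of all genes was itself shifted by 0.15 in siSbp2l, and under median-ratio scaling, which removes such a shift, Peg3 was at 0.84 (limma adjusted p = 0.000353) and not called. Over its 23 alternatives the Peg3 value stayed between 0.84 and 1.06 with an adjusted p of at most 0.00173. Markers of the cell stage differed in the same libraries. The 9 OL markers summed to 2688 and 2873 FPKM in siSbp2l, 5855 and 5098 FPKM in siPdgfra and 6769 to 10049 FPKM in the Day3 controls. The OPC gene Pdgfra was 149.9 and 144.4 FPKM in siSbp2l and 32.4 to 72.1 FPKM in the Day3 controls, although the 8 OPC markers together summed to 1259 and 1296 FPKM, within the 907 to 1334 FPKM of those controls. The part of cell stage in the Peg3 result was not tested.

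Igf2 in siSbp2l depended on the control. It was 1.43 ± 0.166 higher than in non-treated and 1.48 ± 0.166 higher than in mock, both called (limma adjusted p = 8.43e-05 and 8.17e-05). It was -0.14 ± 0.166 from NC siRNA #1 and 0.32 ± 0.166 from NC siRNA #2, neither past the test (limma adjusted p = 0.523 and 0.153). Of the 4 genes tested in siSbp2l, 2 were called with non-treated as the control, beside 10.6% of all genes in either direction, and 1 with mock, beside 8.01%. With NC siRNA #1 as the control limma called 0 (3 at an unadjusted p under 0.05), beside 9.86% of all genes, and with NC siRNA #2 again 0 (2 at an unadjusted p under 0.05), beside 7.67%.

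Igf2 was also higher with either non-targeting siRNA than without siRNA, part of the split noticed after the values were seen. The 4 comparisons that follow share groups and are not independent of each other. NC siRNA #1 was 1.57 ± 0.166 above non-treated and 1.62 ± 0.166 above mock (limma adjusted p = 0.000133 and 0.000136), and NC siRNA #2 was 1.12 ± 0.166 and 1.17 ± 0.166 above them (limma adjusted p = 0.00138 and 0.00145). These 4 comparisons called 3.86%, 3.19%, 2.61% and 2.02% of all genes in either direction, in the same order, and Igf2 was the 1 called of the 4 genes tested in each. Mock against non-treated gave -0.05 ± 0.166 for Igf2 (limma adjusted p = 0.876). Among the neuron markers, of which 2 of 7 were under 1 FPKM in all libraries, the summed level was 48.8 to 103.5 FPKM in the Day3 libraries without siRNA, 121.0 to 277.0 FPKM in NC siRNA #1 and NC siRNA #2 and 200.9 to 241.3 FPKM in the knockdowns. That sum was mostly Tubb3, with Slc17a7 at or near 0. Of the listed neuron markers only Tubb3 divided the libraries in this way without overlap. As group means, Snap25 was 0.697 FPKM in non-treated and 0.215 FPKM in siSbp2l. Rbfox3 was 0.527 FPKM in mock and 0.105 FPKM in siPdgfra, and Syt1 was 0.872 FPKM in mock and 0.359 FPKM in NC siRNA #2. P2ry12, a microglial marker, divided the libraries as Tubb3 did, at 2.94 to 9.46 FPKM in the 8 siRNA libraries and 0.703 to 1.80 FPKM in the 4 Day3 libraries without siRNA, with the other 6 microglial markers under 1 FPKM in all libraries. The part of these markers in the Igf2 result was not tested.

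The third comparison asked the same of Pdgfra. In siPdgfra, Plagl1 was at 1.02 ± 0.106 relative to the 4 controls averaged and was called (limma adjusted p = 0.000111 with no filter, since it passed the filter through siPdgfra). It made 1 higher and 0 lower of 4 genes tested with limma, 3 of them at an unadjusted p under 0.05, where 3.97% of all genes were called higher and 4.03% lower. Mest, at 0.94 ± 0.119 (limma adjusted p = 0.000113), and Igf2, at 0.62 ± 0.131 (limma adjusted p = 0.00269), passed the adjusted p but not the fold, and Peg3 did not pass at -0.13 ± 0.108 (limma adjusted p = 0.343). H19 was at -1.84 ± 0.1695 from the averaged controls, and at -0.78 from non-treated, -1.38 from mock, -2.07 from NC siRNA #2 and -3.15 from NC siRNA #1, all as descriptions. Plagl1 was 0.83 and 0.97 above non-treated and mock, short of a fold of 2, and 1.14 and 1.15 above NC siRNA #1 and NC siRNA #2. The last 2 were called with the filter, which Plagl1 passed through siPdgfra, so they are descriptions.

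With non-treated as the only control, siPdgfra had 1 of the 4 genes called, beside 11% of all genes in either direction. With mock it had 1, beside 9.43%, with NC siRNA #1 2, beside 9.74%, and with NC siRNA #2 1, beside 10.2%. Mest was called against NC siRNA #1 alone, at 1.23 ± 0.150 (limma adjusted p = 0.000137). Under median-ratio scaling Plagl1 was at 0.96 and with a pseudocount of 5 at 0.38, neither called, and the H19 value lay between -2.20 and -1.41 over its 23 alternatives. The 7 astrocyte markers summed to 48.9 and 47.8 FPKM in siPdgfra against 102.9 to 176.8 FPKM in the Day3 controls, and the 8 meningeal fibroblast markers to 7.29 and 5.75 FPKM against 1.81 to 2.79 FPKM, mostly Tbx18, with Col1a1, Col1a2, Col3a1 and Lum at or near 0. The part of the astrocyte markers in the H19 and Plagl1 results was not tested.

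Set directly against each other, the knockdowns differed in Peg3 and in H19. Peg3 was 1.13 ± 0.137 higher in siSbp2l than in siPdgfra (limma adjusted p = 9.02e-05), the 1 called of 4 tested, where 6.94% of genes were called higher and 6.73% lower. Plagl1 differed by -0.77 ± 0.134, short of the fold, given as a description since it passed the filter through siPdgfra and 1 siSbp2l library. Mest (-0.36 ± 0.150, adjusted p = 0.066) and Igf2 (0.15 ± 0.166, adjusted p = 0.482) did not pass limma. H19 was 21.4 times higher in siSbp2l as a ratio of mean FPKM, or 4.40 on the log2 scale, which is a description.

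Between the non-targeting controls, 0 of the 4 genes tested with limma were called, with 2 at an unadjusted p under 0.05, and 2.36% of all genes were called higher and 1.63% lower in NC siRNA #1. Mest was -0.64 ± 0.150 in NC siRNA #1 minus NC siRNA #2 (limma adjusted p = 0.0135), past the adjusted p but not the fold, and Igf2 was 0.45 ± 0.166 (limma adjusted p = 0.0842). Peg3 (-0.10) and Plagl1 (0.01) were near 0.

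Genes close to the 9 on the chromosome were read from the coordinates of the table. Within 250 kb of H19, 14 genes are listed and 3 reached 1 FPKM in at least 2 libraries: Igf2, the mitochondrial ribosomal protein gene Mrpl23 and Ctsd, which encodes the lysosomal protease cathepsin D. From Day0 to Day3 non-treated Ctsd rose by 1.37 and Mrpl23 fell by 1.07, both called, though with mock in place of non-treated Mrpl23 was at -0.798 and not called. Neither was called in siSbp2l (-0.32 and 0.598) or in siPdgfra (0.13 and 0.35). Around Mest, 3 of 11 neighbours were expressed. Tmem209 and Tsga14 were lower at Day3 by -1.05 and -1.34, and Copg2, a coat protein gene that is imprinted in some tissues, was at 0.09. Tsga14 was also called between the knockdowns, 1.02 higher in siSbp2l than in siPdgfra (limma adjusted p = 3.62e-05).

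Peg3 starts 0.322 kb from Usp29, a paternally expressed gene read in the opposite direction. Usp29 was 1.03 and 1.11 FPKM at Day0, 0.138 to 0.296 FPKM in the 8 Day3 control libraries, 0.559 and 0.453 FPKM in siSbp2l and 0.128 and 0.0889 FPKM in siPdgfra. Its order of groups thus had Day0 and siSbp2l on top, as for Peg3, a likeness singled out after the values were seen. Day3 non-treated minus Day0 was -0.76 for Usp29, not called, and in the Day3 fit it did not pass the filter. Around Plagl1, Utrn, the gene of the dystrophin-related protein utrophin, rose by 1.17 in siSbp2l, Sf3b5, a splicing factor gene, was lower at Day3 than at Day0 by -1.41, and Phactr2 was -1.19 in siSbp2l minus siPdgfra. All of these were called, but Phactr2 passed the filter through NC siRNA #1 and siPdgfra alone, so its value is a description.

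Near Grb10 lies Ddc, the aromatic amino acid decarboxylase gene that is imprinted in heart. It passed the filter through Day3 alone, so its rise of 5.37 ± 0.128 from Day0 to Day3 is a description. Against the controls Ddc fell by 2.40 in siSbp2l and by 2.18 in siPdgfra. Cobl, an actin nucleator gene of the same domain, rose by 1.23 (0.98 and not called with mock in place of non-treated) and Fignl1, a DNA repair gene, fell by 2.96 from Day0 to Day3. The rise of Cobl is also a description, since it passed the filter through Day3 alone. Peg12, a paternally expressed gene near Ndn, fell by 3.22 from Day0 to Day3 and was 1.22 higher in siPdgfra than in the controls. The neighbours of Igf2 at 1 FPKM in at least 2 libraries were H19 and Mrpl23, both given above. Dlk1 had no such neighbour and Meg3 had Dlk1 alone, so no further gene was tested near these 3.

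Over a wider list of 72 other imprinted genes, 70 were in the table and 37 were tested between Day0 and Day3 non-treated. There 5 were called higher and 5 lower, beside 11.4% and 15.2% of all genes, with a median difference of -0.124 beside -0.116 for all genes. The largest rises were in Ddc, Cd81 (2.32), a tetraspanin gene, Zrsr1 (1.73), a splicing factor gene, and Tssc4 (1.69). The largest falls were in Peg12, Inpp5f (-3.10), a phosphoinositide phosphatase gene, Peg10 (-2.97), a retrotransposon-derived gene needed for the placenta, and Atp10a (-1.82). Ddc and Cobl passed the filter through Day3 alone and Atp10a through Day0 alone. The filter thus brought these genes to the counts, and their values are descriptions. Peg10 was 92.4 and 98.1 FPKM at Day0 and 9.46 to 18.5 FPKM at Day3.

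Of 34 tested at Day3, 0 were called higher in siSbp2l with limma, with 12 higher at an adjusted p under 0.05 without the fold, and 3 lower, beside 3.12% and 4.08% of all genes. The 3 called lower were Ddc, Gatm (-1.81), which encodes the first enzyme of creatine synthesis, and Tssc4 (-1.34). The Tssc4 value depended on the control. It was 33.0 and 33.7 FPKM in siSbp2l, near the 38.6 and 37.9 FPKM of NC siRNA #2. In the other Day3 control libraries Tssc4 was 60.6 to 137.3 FPKM. The medians of the list were 0.0467 in siSbp2l and 0.0419 in siPdgfra, beside 0.151 and 0.0891 for all genes. In siPdgfra 3 rose (Peg12, Gatm by 1.18 and Osbpl5, an oxysterol-binding protein gene, by 1.09) and 3 fell (Ddc, Nnat by 1.28 and Ube3a by 1.10), beside 3.97% and 4.03% of all genes. Both rises of Gatm and Osbpl5 depended in size on the control. Gatm was 290.9 and 292.2 FPKM in siPdgfra, 175.6 to 211.1 FPKM with NC siRNA #1 or #2 and 70.3 to 100.9 FPKM at Day3 without siRNA. As group means Osbpl5 was 20.6 FPKM in siPdgfra, 15.2 FPKM in NC siRNA #1 and 5.93 FPKM in non-treated. Gatm, at 34.9 and 36.6 FPKM in siSbp2l, thus moved in opposite directions in the knockdowns. It was -2.99 ± 0.0875 in siSbp2l minus siPdgfra (limma adjusted p = 1.94e-08). That comparison had 2 of the 34 higher and 6 lower, beside 6.94% and 6.73% of all genes. Ube3a was 22.6 and 56.5 FPKM in the non-treated pair, so its value there rests on libraries that disagree. Between the non-targeting siRNAs 1 rose, Tssc4 (1.76), and 0 fell with limma, with 1 lower at an adjusted p under 0.05 without the fold.

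**Figure D4:**
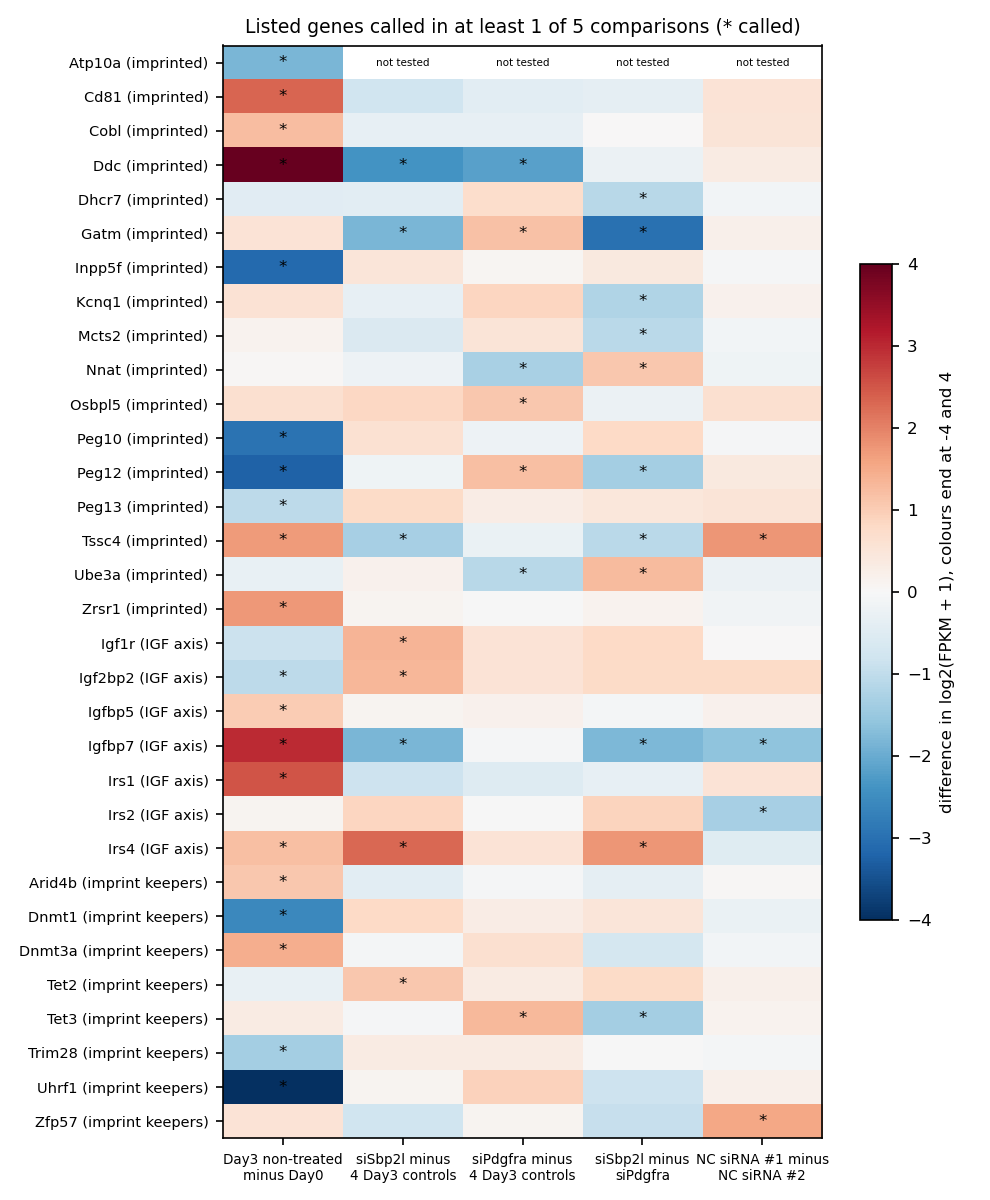
Difference in log2(FPKM + 1), as colour, for the listed imprinted genes outside the 9, the IGF axis and the genes that keep imprints that were called in at least 1 of 5 comparisons, with an asterisk where called. Ddc was up at Day3 and down in both knockdowns, Gatm was down in siSbp2l and up in siPdgfra, and Irs4 was up at Day3 and further up in siSbp2l.

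On the receiving side of Igf2, 16 genes of the IGF axis were listed. From Day0 to Day3, 4 of 12 tested rose and 1 fell, beside 11.4% and 15.2% of all genes. The binding protein genes Igfbp7 (2.97) and Igfbp5 (1.02) and the receptor substrate genes Irs1 (2.52) and Irs4 (1.19) rose, and Igf2bp2, which encodes an RNA-binding protein of Igf2 mRNA, fell by 1.05. With mock in place of non-treated Igfbp5 (0.95) and Igf2bp2 (-0.96) were not called. Igfbp7, Igfbp5 and Irs4 passed the filter through Day3 alone, so the filter brought them to this count and their rises are descriptions. In siSbp2l 3 of 11 rose and 1 fell, beside 3.12% and 4.08% of all genes. These were Irs4 (2.30), the receptor gene Igf1r (1.35) and Igf2bp2 (1.33), which rose, and Igfbp7, which fell by 1.84. The fall of Igfbp7 depended on the control. It was 1.01 and 1.44 FPKM in siSbp2l, near the 1.68 and 2.10 FPKM of NC siRNA #1. In the other Day3 control libraries Igfbp7 was 7.68 to 13.6 FPKM. In siPdgfra limma called 0 of 11, with 5 higher and 2 lower at an adjusted p under 0.05 without the fold. Igf2r, the imprinted clearance receptor for Igf2, was 0.67 and 0.72 higher in siSbp2l and siPdgfra, short of the fold. In siSbp2l minus siPdgfra Irs4 was higher by 1.76 and Igfbp7 lower by -1.79, and between the non-targeting siRNAs Igfbp7 (-1.60) and Irs2 (-1.34) were lower in NC siRNA #1.

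Of 16 genes that keep or read imprints, 14 were tested. From Day0 to Day3, 2 rose and 3 fell, beside 11.4% and 15.2% of all genes. Uhrf1 fell by 4.01 and Dnmt1, which with Uhrf1 copies methylation at replication, by 2.59, Trim28 fell by 1.37, and Dnmt3a (1.47) and Arid4b (1.07) rose. Arid4b was 32.1 and 53.2 FPKM in the non-treated pair, and with mock in place of non-treated it was at 0.86 and not called. Ctcf was 58.0 and 63.4 FPKM at Day0 and 35.2 to 41.9 FPKM at Day3. In siSbp2l 1 of 14, Tet2, was called (1.09, beside 3.12% of all genes higher) and in siPdgfra 1, Tet3 (1.30, beside 3.97%), both methylcytosine dioxygenases, and Tet3 was -1.36 in siSbp2l minus siPdgfra. Zfp57, a zinc finger protein that holds imprints, was 2.19 and 1.93 FPKM in NC siRNA #1 but 0.0948 and 0 FPKM in NC siRNA #2 and 0.0732 and 0.135 FPKM in siSbp2l, and was called between the non-targeting siRNAs (1.55). DNA methylation was not measured here.

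Genes with the most alike pattern were sought by Pearson r of log2(FPKM + 1) over the 7 group means among 8618 genes with a mean of at least 5 FPKM. The 5 most like H19 were Ctnna2 (r = 0.993), Arl10 (0.9903), Snrk (0.983), Vps37c (0.982) and Sumf1 (0.9803), and 31 genes reached 0.95. None of the 5 had the range of H19: Ctnna2, for instance, went from 14.5 FPKM at Day0 to 34.8 FPKM in siSbp2l. The 5 most like Mest were Cct7, H1fx, Plk2, Naa10 and Rpl7, with r of 0.9925 to 0.9967, and 308 genes reached 0.95. Plk2, a kinase gene, went from 74.5 FPKM at Day0 to 10.5 FPKM or less at Day3.

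For the others the closest were Cc2d2a (r = 0.987) and Ext1 (0.986) for Peg3, Letm1 and Trpc4ap for Igf2 (0.9903 and 0.984), Cyp2j9 and March5 for Plagl1 (0.9902 and 0.987), and 6430706D22Rik and Rfc2 for Dlk1 (0.995 and 0.993). Cc2d2a, a ciliary gene, was 8.99 FPKM at Day0, 9.44 FPKM in siSbp2l and 3.65 to 4.90 FPKM in the other groups. Among the 9 genes, Mest and Dlk1 were the most alike (r = 0.97), both high at Day0, and H19 and Peg3 were not alike (r = -0.01).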

How the data were processed

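mRNA-seq of 14 libraries, made with a stranded kit, was processed by the authors in OmicSoft ArrayStudio on mm10 with refGene models (aligner and strand setting not given in the sources used here). The table the authors deposited as counts holds FPKM values, per the file's decimals. A second deposited table of the authors' own siSbp2l comparisons (fold changes and p-values) was used only for gene positions and exon lengths. Groups came from the sample labels. Depths were recovered as whole fragments: 89.4% to 92.8% of low values of single-transcript genes fell within 0.1 of a whole number. Intervals from 3 fragments cover counting error only.

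limma 3.58.1 in R 4.3.3, with trend and robust moderation, was fitted to log2(FPKM + 1), with a pseudocount of 1, on 1 mean per group, for genes with at least 1 FPKM in at least 2 fitted libraries: 11650 genes in the 12 Day3 libraries and 11874 in all 14. Fold changes on this scale are understated for low genes. Tests are two-sided. The study's count test (DESeq2) needs counts and was not run. The fit was tested on simulated data. The libraries were treated as unpaired. Correlations of same-numbered deviations ran from -0.38 to 0.47. Replicate differences followed GC content with a rho of -0.45 to 0.771 across groups, so these correlations cannot show whether same-numbered libraries were paired. No duplicated library was found (mean chi-square per gene 1.80 to 30.4 between replicates).

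The genes, the lists of other imprinted, IGF axis, imprint-keeping and marker genes, and the tests were chosen with earlier results of these data known. H19 in siPdgfra against the controls and in non-treated against Day0 was planned as a test and is given as a description, because the control values helped to choose it. Named beside the 9 genes were listed genes called in a main comparison (up to 4 per direction), called neighbours within 250 kb (up to 3 per gene), and the most alike patterns (5 for H19 and Mest, 2 for others). Alternatives covered pseudocounts, scalings, filters, moderation, controls, a replicate block, each library left out and, chosen after seeing the data, removal of a GC trend.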

Additional observations from a re-analysis of the deposited data

Results flagged for a closer look

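H19 and Peg3 differed between the knockdowns. H19 was above all 8 Day3 control libraries in both siSbp2l libraries and below all 8 in both siPdgfra libraries, with siSbp2l minus siPdgfra at 4.40 on the log2(FPKM + 1) scale. This difference was not tested, because H19 was chosen for its level in siSbp2l. Peg3 was higher in siSbp2l than in siPdgfra by 1.13 ± 0.137 (n = 2 against 2, limma adjusted p = 9.02e-05), with both siSbp2l libraries above both siPdgfra libraries. With 2 libraries per group no group was large enough to look for single outlying libraries.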

How the results depend on the processing

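Of the values of single genes under the alternatives, 419 kept their direction and their side of the thresholds, 27 lost the call, 5 gained it, 7 described values moved by more than the spread and 2 changed sign. Between Day0 and Day3 non-treated the count of called genes was 4, it was 1 with a pseudocount of 5, and it ran from 2 to 4 with 1 library left out, lowest without non-treated replicate 1. In siSbp2l against the 4 controls the count was 1. It was 2 with a pseudocount of 0.1 and without the NC siRNA #1 group, and 0 with a pseudocount of 5, median-ratio or upper-quartile scaling, a GC trend removed, or without the non-treated group. Leaving out 1 library gave 0 to 1, with 0 without non-treated replicate 1, mock replicate 1, NC siRNA #2 replicate 2 or siSbp2l replicate 2. In siPdgfra against the controls the count was 1. It was 2 with a pseudocount of 0.1, and 0 with a pseudocount of 5, either scaling, a minimum of 5 FPKM, a GC trend removed, or without the NC siRNA #1 group, and 0 to 2 with 1 library left out. It was 0 without mock replicate 2, NC siRNA #2 replicate 1 or siPdgfra replicate 1, and 2 without siPdgfra replicate 2. In siSbp2l against siPdgfra the count was 1, 2 with a pseudocount of 0.1 and 0 with a pseudocount of 5. It stayed at 0 between the non-targeting siRNAs.

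Plagl1 in NC siRNA #1 minus NC siRNA #2 was 0.01 and turned to -0.05 without NC siRNA #1 replicate 2, within a range of -0.11 (without NC siRNA #2 replicate 1) to 0.13 (without NC siRNA #2 replicate 2) with 1 library left out. H19 in siSbp2l against the controls was 2.20 without the non-treated group and 2.99 without the NC siRNA #1 group, and in siPdgfra it was -2.20 and -1.41. Which cause lies behind these changes was not tested, apart from the pseudocount and filter, which bear on low genes by construction. A fit with the replicate block gave 4, 1, 1, 1 and 0 called genes in the 5 comparisons, as without it, and moved the calls over all genes at most from 1592 to 1594. Depth limits Meg3, Ndn, Dlk1 and Grb10, whose Day3 levels lay near the 3-fragment level in at least 1 library.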
